A study of Mus musculus with 7 samples.

Results

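Collagens are proteins of the extracellular matrix built from 3 chains wound around each other, and each chain is made by a gene of its own. The genes examined here were all rows of the deposited count table whose symbol has the form Col, a number, a and a number, which found 43 of 34592 rows. By the proteins they encode they were placed into 11 fibrillar chains (types I, II, III, V, XI, XXIV and XXVII), 8 basement membrane chains (type IV, XV and XVIII) and 24 other chains. Their transcripts were counted in 7 mouse Group 3 medulloblastomas (G3 MBs), aggressive tumors of the cerebellum driven here by the oncogene Myc. All 7 tumors came from tumorsphere line # 19568. The line was made from granule neuron progenitors of the cerebellum infected with a retrovirus carrying Myc and GFP, and the progenitors lacked Trp53 and Cdkn2c, as the methods give it. Before the cells were placed in Matrigel into the cortex of immunodeficient CD1-nu/nu mice, they were infected with a lentivirus that carried human WDR11 under the EF1 promoter in 4 tumors (WDR11OE). The 3 controls are listed in the labels with no treatment and described in the study's methods as carrying the empty vector. The infected cells were not sorted, and the line is a single one. The study's methods call the sequenced samples tumors and take RNA from tumorspheres and tumor chunks, while its abstract speaks of tumorspheres. Where a sample was a chunk of tumor, host cells of the cortex and meninges can be in it.

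In the coiled part of a collagen chain 1 residue in 3 is glycine, the only one small enough to sit at the center of the helix, so a collagen gene carries long runs in which 1 codon in 3 starts with GG. Fibrillar collagens have 1 long uninterrupted helix and form the cables of connective tissue. Basement membrane chains have helices with breaks, form sheets under epithelia and around vessels, and in the brain are found mainly along vessels and the pial surface. The other collagens form beaded filaments, hexagonal nets, links on the surface of fibrils or anchors in the cell membrane.

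The glycine repeat was read from the genome (NCBIM37) in coding exons of 6 collagens on which the results turn. The first 4 below are exons of 54 bases, the unit length of fibrillar collagen exons, from genes with lower transcript levels in the WDR11OE tumors (Col3a1, Col6a2 and Col23a1) and a higher one (Col20a1). The last pair comes from the most abundant basement membrane chains and shows how the period is broken. Capitals mark in-frame codons that start with GG, which encode glycine.

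Col3a1, chr1:45382205-45382258, plus strand, coding exon 6: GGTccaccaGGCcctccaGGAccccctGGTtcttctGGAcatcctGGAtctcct
Col6a2, chr10:76074693-76074746, minus strand, coding exon 5: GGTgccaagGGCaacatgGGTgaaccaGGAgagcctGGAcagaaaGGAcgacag
Col23a1, chr11:51382963-51383016, plus strand, coding exon 17: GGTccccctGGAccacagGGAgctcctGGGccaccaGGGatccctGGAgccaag
Col20a1, chr2:180744082-180744135, plus strand, coding exon 26: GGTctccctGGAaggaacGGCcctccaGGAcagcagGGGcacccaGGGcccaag
Col4a1, chr8:11244486-11244569, minus strand, coding exon 9: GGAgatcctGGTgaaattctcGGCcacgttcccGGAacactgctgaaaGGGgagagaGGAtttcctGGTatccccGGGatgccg
Col4a2, chr8:11401148-11401264, plus strand, coding exon 6: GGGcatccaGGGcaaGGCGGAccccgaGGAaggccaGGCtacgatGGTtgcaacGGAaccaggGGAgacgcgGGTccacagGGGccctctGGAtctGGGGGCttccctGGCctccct

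In the whole coding sequences, the longest run of such codons at a spacing of 3 held 337 to 344 codons in 9 of the 11 fibrillar chains, 216 in Col24a1 and 217 in Col27a1. In the 8 basement membrane chains it held between 30 and 66, which lies within the 28 to 113 of the 24 other chains. Coding exons of exactly 54 bases numbered 21 to 33 in a fibrillar gene, 1 to 3 in a basement membrane gene and 0 to 28 in a gene of the other class.

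All 43 genes had at least 1 count in some tumor and passed edgeR's filter on low counts, and their levels spanned more than 4 orders of magnitude. In counts scaled to library size (CPM), 31 of them were above 1 in every tumor, 9 were above 100 in every tumor and 4 were under 1 in every tumor. Per length of merged exons (RPKM, the CPM per kilobase), Col4a1 led in both groups, with a mean of 746 in the controls and 583 in the WDR11OE tumors. Col3a1 ranked 2 in the controls and 3 in the WDR11OE tumors, and Col4a2 ranked 3 and 2. The chains of cartilage fibrils were also among the first 10 in both groups, namely Col2a1 with mean RPKM of 66.0 in the controls and 43.6 in the WDR11OE tumors, and Col9a1, Col9a2 and Col9a3 with means between 43 and 73.4. Collagen transcripts took 1.36% to 1.39% of all counts in a control tumor and 0.677% to 1.0% in a WDR11OE tumor, so the groups did not overlap.

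The classes did not move alike. Summed fibrillar RPKM was 648.1, 503.7 and 556.4 in control 1, 2 and 3 and 270.9, 274.7, 302.3 and 214.5 in WDR11OE 1, 2, 3 and 4. All 4 WDR11OE tumors were thus below all controls. Summed basement membrane RPKM was 961.6, 1156 and 1161 in the controls and 929.0, 986.1, 793.3 and 537.4 in the WDR11OE tumors, where the groups overlapped and WDR11OE 4 was the lowest. The sum of the other chains overlapped as well, between 297.0 and 395.9 in the controls and between 219.9 and 352.4 in the WDR11OE tumors. As a share of all collagen RPKM, the fibrillar chains made up 25.7% to 32.3% in the controls and 17% to 22.1% in the WDR11OE tumors, and the other chains 15.2% to 19.7% and 21.0% to 22.8%, with no overlap in either. The share of basement membrane chains overlapped, at 47.9% to 59.1% and 55.3% to 61.1%. With the length of the main transcript in place of all merged exons, the fibrillar sums stayed apart, at 715 to 882 RPKM in the controls and 303 to 414 in the WDR11OE tumors. The fibrillar sum was carried by Col3a1, which made up 50.1% to 69.9% of it in the controls and 45.4% to 60.2% in the WDR11OE tumors. Without Col3a1 the fibrillar sums of the 2 groups met at 155 RPKM, with a highest value of 324 in control 1 and a lowest of 85.4 in WDR11OE 4.

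**Figure D1:**
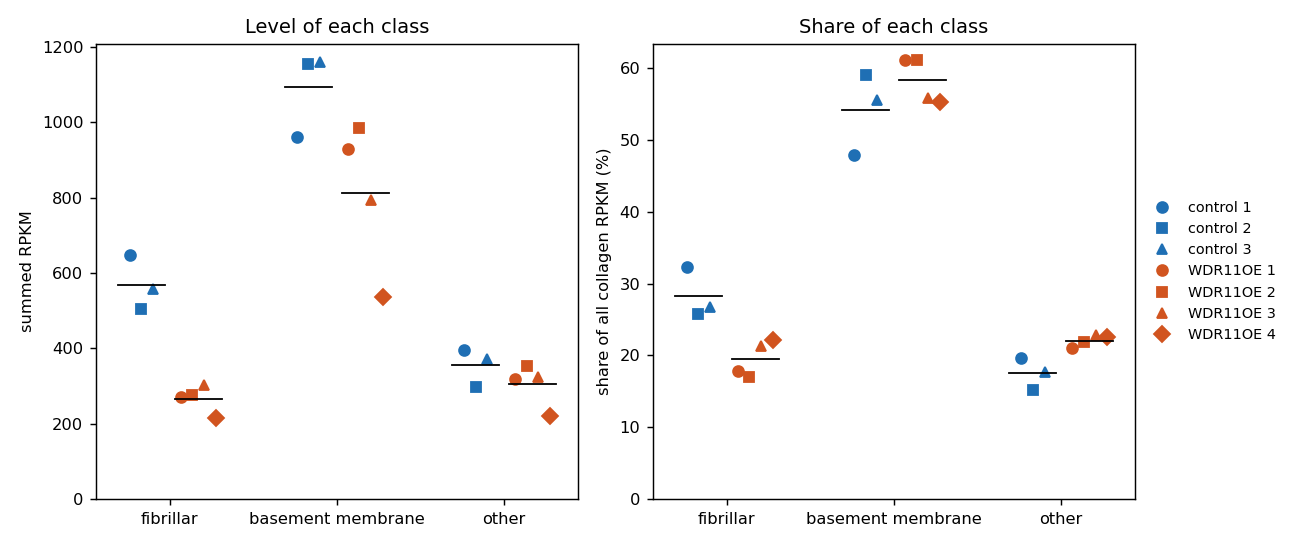
Summed RPKM (left) and share of all collagen RPKM in percent (right) of the 11 fibrillar, 8 basement membrane and 24 other collagens, with 1 point for each tumor and a line at the mean of each group. The fibrillar sums of the 4 WDR11OE tumors lie between 214.5 and 302.3, below the control range of 503.7 to 648.1, while the basement membrane sums overlap.

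Each gene was then compared between the 4 WDR11OE and the 3 control tumors with edgeR's quasi-likelihood test and Benjamini-Hochberg adjustment over the 17389 genes tested, where a negative log2 fold change means lower in WDR11OE. Of the 43 collagens, 15 (34.9%) were lower and 2 (4.65%) higher at an adjusted p under 0.05, whereas 15.8% of all genes tested were lower, 18.1% higher and 33.9% either. Their median log2 fold change was -0.37, with 28 negative and 15 positive, beside 0.08 for all genes tested. With limits added on the fold (2 or more) and on the average log2 CPM (above 0), the test left 8 lower and 1 higher collagen, against 3.45% of all genes lower and 2.36% higher. The ranges of the groups did not overlap for 14 lower and 3 higher collagens, where the background was 19.1% lower and 23.5% higher.

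By class, 4 of 11 fibrillar chains fell and none rose, with a median log2 fold change of -0.59. Of the 8 basement membrane chains 2 fell and none rose, with a median of -0.30. Of the 24 others 9 fell and 2 rose, with a median of -0.25, and within them the type VI chains stood at 4 of 6 lower with a median of -0.72 and the chains that link to fibrils (FACITs) at 3 of 9 lower and 1 higher with a median of 0.37. Log2 fold changes depended on base composition, with a Spearman correlation of -0.35 with the GC content of the exons over 14919 genes that code for proteins and of 0.13 over the 43 collagens, where genes are no replicates of each other. With each tumor's GC trend taken into the offset of the fit, 8 collagens were lower and 5 higher, against 9.26% and 4.49% of all genes. The share of lower among the collagens called thus went from 88.2% to 61.5%, and among all genes called from 46.6% to 67.3%. All 8 that were lower with the GC trend removed were also lower without it (Col3a1, Col6a2, Col6a4, Col8a2, Col12a1, Col14a1, Col22a1 and Col23a1), and Col11a2, Col16a1 and Col7a1 were added to the 2 that were higher. By class, 1 fibrillar chain was then lower and 1 higher, with a median log2 fold change of -0.36. Of the basement membrane chains 0 were called in either direction, with a median of -0.18. Of the others 7 were lower and 4 higher, with a median of -0.28. The count of lower collagens went from 15 to 8 without control 1, to 9 without control 2 or control 3, to 7 without WDR11OE 1, to 9 without WDR11OE 3 and to 10 without WDR11OE 2, and was 14 without WDR11OE 4. The share of all genes that was lower moved too. It was 13.9% without control 1, where 18.6% of the collagens were lower, and 12.3% and 11.7% without control 2 and control 3, where 20.9% were. It was 11.8% without WDR11OE 1 beside 16.3% of the collagens, 12.8% without WDR11OE 2 beside 23.8%, 13.1% without WDR11OE 3 beside 21.4%, and 16.9% without WDR11OE 4 beside 33.3%. The count of higher collagens was 4 without control 1 or WDR11OE 4, 0 without control 3 or WDR11OE 2 and 1 without any of the other tumors. Of all genes, 14.5% were higher without control 1, 11.6% without control 2 and 14.7% without control 3. That share was 9.12%, 9.65%, 14.5% and 17.6% without WDR11OE 1, 2, 3 and 4. Col3a1, Col6a2, Col6a4, Col8a2, Col22a1 and Col23a1 were called under each of the 16 alternatives run for them.

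**Figure D2:**
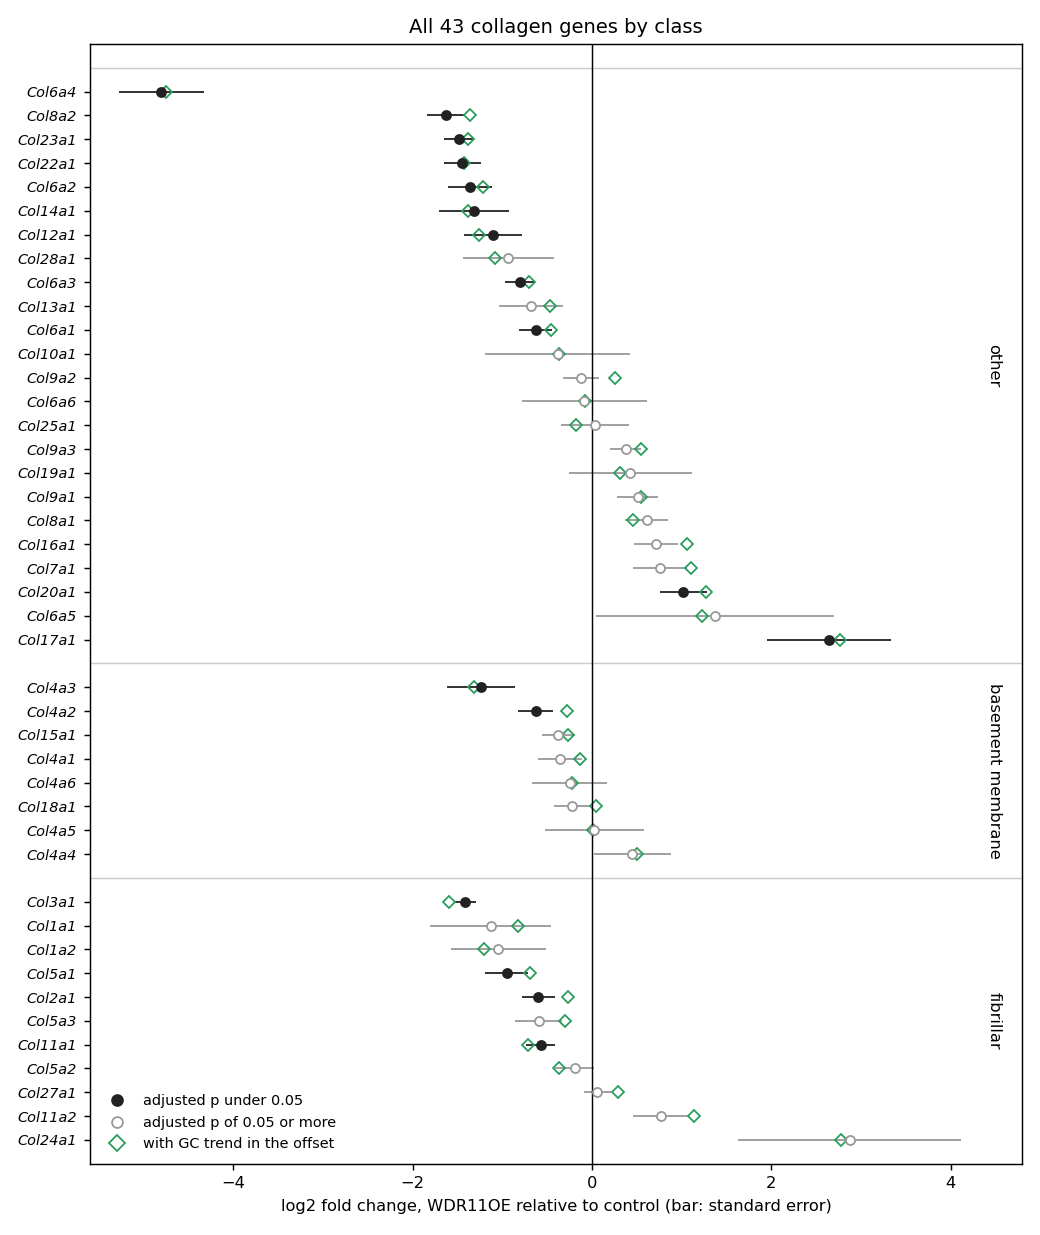
Log2 fold change of WDR11OE relative to control for the 43 collagens, ordered within their class, with bars for the standard error, filled points for an adjusted p under 0.05 (edgeR) and open green diamonds for the value with the GC trend in the offset. In the fibrillar class 4 filled points lie left of 0 and none right of it, and Col6a4 is farthest to the left at -4.80.

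Among the fibrillar chains, Col3a1, which builds fine fibrils of vessels and soft tissue, differed most clearly. It was counted at 2722, 2927 and 3264 CPM in the controls and at 1079, 1047, 1234 and 1083 CPM in the WDR11OE tumors. The gap between the groups was larger than the spread within either of them. The transcript was 2.67-fold lower, with a log2 fold change of -1.42 ± 0.12 (SE) and an adjusted p of 0.000917 by edgeR's quasi-likelihood test, and -1.60 with the GC trend removed.

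Col5a1 and Col11a1 code for chains that sit inside collagen fibrils and set their width. Col5a1 was at 265, 175 and 167 CPM in the controls and at 110, 118, 122 and 68.7 CPM in the WDR11OE tumors, with no overlap and control 1 and WDR11OE 4 at the ends. It fell by 0.95 on the log2 scale (SE 0.24, edgeR adjusted p = 0.0202). The call was lost without control 1 or WDR11OE 1 (edgeR adjusted p between 0.0584 and 0.0607) and with the GC trend removed (0.126). Col11a1 was at 140, 130 and 131 CPM in the controls and at 101, 108, 84.4 and 65.7 CPM in the WDR11OE tumors, and fell by 0.57 (SE 0.16, edgeR adjusted p = 0.0316). Its call was lost without any 1 of the controls, WDR11OE 1 or WDR11OE 3 (edgeR adjusted p between 0.0727 and 0.0857). The partner chains differed from these. Col5a2 was at 194, 104 and 116 CPM in the controls and at 135, 122, 125 and 102 CPM in the WDR11OE tumors, with overlapping groups, and Col5a3 was at 7.25, 11.7 and 6.96 CPM and at 5.59, 4.63, 7.70 and 5.07 CPM. Neither passed the test. Col11a2 had a positive log2 fold change of 0.77 (edgeR adjusted p = 0.101), and it was called higher with the GC trend removed (1.14, adjusted p = 0.049) and without control 1 (1.13, adjusted p = 0.0316).

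Col2a1, the main chain of cartilage fibrils, was at 380, 352 and 461 CPM in the controls and at 259, 293, 312 and 187 CPM in the WDR11OE tumors. No WDR11OE tumor reached the lowest control. It fell by 0.60 on the log2 scale (SE 0.18, edgeR adjusted p = 0.0423), a call that was lost without any 1 of the controls, WDR11OE 1 or WDR11OE 2 (adjusted p between 0.0658 and 0.137) and with the GC trend removed (-0.26, adjusted p = 0.516).

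The chains of type I collagen, the main protein of bone, skin and scar, were set apart by 1 control. Col1a1 was at 1071 CPM in control 1, against 228 and 202 CPM in control 2 and 3 and 283, 270, 282 and 81.9 CPM in the WDR11OE tumors. Col1a2 was at 186 CPM in control 1, 39.9 and 49.6 CPM in the other controls and 41.9, 38.3, 63.9 and 34.7 CPM in the WDR11OE tumors. In both, control 1 was the highest of all tumors and the rest of the groups overlapped. The log2 fold changes of -1.13 (SE 0.67) for Col1a1 and -1.04 (SE 0.53) for Col1a2 did not pass the test (edgeR adjusted p = 0.247 and 0.178), and that of Col1a1 was 0.09 without control 1. The median of the fibrillar class was -0.01 without this tumor.

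The remaining fibrillar genes were Col27a1, between 84.9 and 124 CPM in all tumors with no call (edgeR adjusted p = 0.806), and Col24a1. Col24a1 was at 0.75, 0.453 and 0.123 CPM in the controls and at 0.592, 0.287, 3.94 and 8.21 CPM in the WDR11OE tumors. Only WDR11OE 3 and WDR11OE 4 were above the controls, and the log2 fold change of 2.87 had an SE of 1.25 (edgeR adjusted p = 0.119). Within the WDR11OE group, the same pair of tumors was also higher in the summed astrocyte markers, at 463 and 746 CPM against 260 and 275 CPM in WDR11OE 1 and 2, and in the summed cortical neuron markers, at 83.5 and 262 CPM against 14.5 and 25.8 CPM. The summed markers of fibroblasts and meningeal cells were at 322 and 303 CPM in that pair against 342 and 350 CPM. Within that list, Slc6a13 was at 1.88 and 3.21 CPM in the pair against 0.308 and 0.362 CPM in WDR11OE 1 and 2. Aldh1a2 was at 5.98 and 8.18 CPM against 1.07 and 1.5 CPM, and Dcn at 23.7 and 29.5 CPM against 10.3 and 10.8 CPM. Fbln1, Crabp2 and Twist1 were lower in both tumors of the pair, and no other member was higher in both. The part of these cells in the Col24a1 values was not tested.

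**Figure D3:**
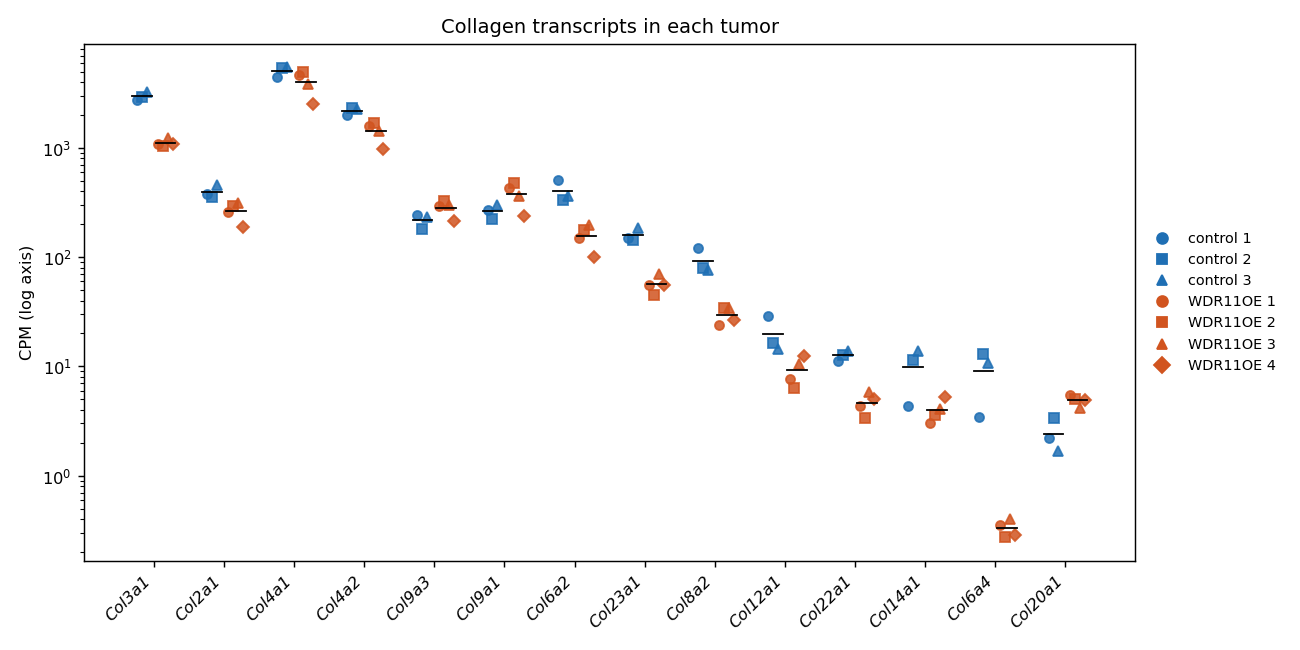
CPM on a log axis in each tumor for the 2 collagens of highest mean RPKM in each class (the first 6 from the left) and for the other collagens past both the test and the limits of fold and level named above, with a line at the mean of each group. Col3a1 lies between 2722 and 3264 in the controls and between 1047 and 1234 in the WDR11OE tumors, and Col6a4 stays under 1 CPM in all 4 WDR11OE tumors.

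In the basement membrane class, Col4a1 and Col4a2 form the common type IV network of vessels and held nearly all of the class sum. Col4a1 was at 4414, 5396 and 5447 CPM in the controls and at 4641, 4905, 3816 and 2543 CPM in the WDR11OE tumors. WDR11OE 1 and 2 lay above control 1, and the log2 fold change of -0.36 (SE 0.25) did not pass the test (edgeR adjusted p = 0.322). Col4a2 was at 1987, 2298 and 2262 CPM in the controls and at 1572, 1681, 1433 and 973 CPM in the WDR11OE tumors, with no overlap. It fell by 0.63 on the log2 scale (SE 0.20, edgeR adjusted p = 0.0445). That call was lost without any 1 tumor other than WDR11OE 4 (adjusted p between 0.0654 and 0.122) and with the GC trend removed (-0.28, adjusted p = 0.534). The 2 genes lie head to head on chromosome 8, with 22 bases shared by their annotated starts.

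Col4a3 and Col4a4, chains of the type IV network of kidney glomeruli, are neighbours of the same kind on chromosome 1, with 71 bases between them, and were near the lower limit of detection. Col4a3 had 13, 16 and 9 counts in the controls and 3, 12, 6 and 15 counts in the WDR11OE tumors, or 0.361, 0.382 and 0.276 CPM against 0.071, 0.15, 0.185 and 0.164 CPM. The pooled ratio of control to WDR11OE was 2.35, with an exact 95% interval of 1.45 to 3.82 that covers counting error only. The gene was called lower (log2 fold change -1.24, SE 0.38, edgeR adjusted p = 0.0419), and the call was lost without any 1 tumor (adjusted p between 0.0564 and 0.133). Col4a4 was at 0.222, 0.31 and 0.153 CPM and at 0.166, 0.287, 0.401 and 0.405 CPM, with no call. On chromosome X, Col4a5 was at 1.06, 6.29 and 5.09 CPM in the controls and at 2.72, 3.93, 5.36 and 4.86 CPM in the WDR11OE tumors, and Col4a6 at 0.695, 2.48 and 1.99 CPM and at 1.40, 1.11, 1.66 and 1.63 CPM. Control 1 was the lowest tumor for both, and neither gene passed the test. Col15a1 and Col18a1, which lie where basement membranes meet connective tissue, had log2 fold changes of -0.37 and -0.22 (edgeR adjusted p = 0.162 and 0.453), and that of Col18a1 was 0.04 with the GC trend removed.

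Type VI collagen forms beaded filaments around cells, from Col6a1, Col6a2 and another chain that can be Col6a3, Col6a4, Col6a5 or Col6a6. Col6a2 was at 504, 333 and 361 CPM in the controls and at 149, 177, 197 and 101 CPM in the WDR11OE tumors, so that no WDR11OE tumor came near the controls. It fell by 1.36 on the log2 scale (SE 0.24, edgeR adjusted p = 0.00549), or 2.56-fold. Col6a1 was at 412, 279 and 351 CPM and at 226, 263, 243 and 167 CPM, with WDR11OE 2 just below control 2, and fell by 0.63 (SE 0.18, edgeR adjusted p = 0.0358). The call for Col6a1 was lost without control 1, control 3, WDR11OE 1 or WDR11OE 3 (adjusted p between 0.0615 and 0.112) and with the GC trend removed (0.232).

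Col6a3 was at 50.5, 41.1 and 49.2 CPM in the controls and at 32.7, 28.3, 26.3 and 20.1 CPM in the WDR11OE tumors. It fell by 0.80 (SE 0.16, edgeR adjusted p = 0.009) and kept its call without any 1 tumor, but not with the GC trend removed (-0.70, adjusted p = 0.0764). Col6a4 had the lowest log2 fold change of all 43 collagens. It was at 3.47, 13.0 and 10.8 CPM in the controls, with control 1 the lowest, and at 0.355, 0.274, 0.401 and 0.285 CPM in the WDR11OE tumors. The log2 fold change was -4.80 (SE 0.47, edgeR adjusted p = 0.00105). In counts it had 125, 545 and 354 in the controls and 15, 22, 13 and 26 in the WDR11OE tumors, a pooled ratio of 30.0 with an exact 95% interval of 23.7 to 38.4 for counting error.

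Its neighbours on chromosome 9 did not share this. Col6a5 was at 0.472, 0.405 and 0.368 CPM in the controls and at 0.0237, 0.0624, 1.54 and 2.67 CPM in the WDR11OE tumors, with WDR11OE 1 and 2 below and WDR11OE 3 and 4 above all controls (log2 fold change 1.37, SE 1.33, edgeR adjusted p = 0.473). These high tumors are the ones that stood out for Col24a1. Col6a6 was at 0.111, 0.882 and 0.858 CPM and at 0.332, 0.324, 0.894 and 0.789 CPM, with no call.

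Among the FACITs, Col22a1, known from junctions of muscle with tendon, was at 11.2, 12.8 and 13.9 CPM in the controls and at 4.31, 3.38, 5.85 and 4.98 CPM in the WDR11OE tumors. It fell by 1.45 on the log2 scale (SE 0.21, edgeR adjusted p = 0.00238), with no overlap. Col12a1 and Col14a1, which bind the surface of type I fibrils, also fell. Col12a1 was at 29.0, 16.2 and 14.4 CPM in the controls and at 7.63, 6.31, 10.6 and 12.5 CPM in the WDR11OE tumors (log2 fold change -1.10, SE 0.32, edgeR adjusted p = 0.035), and its call was lost without control 1, control 2, WDR11OE 1, WDR11OE 2 or WDR11OE 3 (adjusted p between 0.0562 and 0.108). Col14a1 was at 4.36, 11.4 and 13.9 CPM and at 3.01, 3.58, 4.07 and 5.29 CPM (log2 fold change -1.31, SE 0.39, edgeR adjusted p = 0.0376), where control 1 lay below WDR11OE 4, and its call was lost without control 2, control 3, WDR11OE 1, WDR11OE 2 or WDR11OE 3 (adjusted p between 0.073 and 0.132).

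Other FACITs lay on the opposite side. Col20a1 was at 2.20, 3.36 and 1.69 CPM in the controls and at 5.42, 5.07, 4.19 and 4.93 CPM in the WDR11OE tumors. It rose by 1.02 on the log2 scale (SE 0.26, edgeR adjusted p = 0.0226), with every WDR11OE tumor above every control, and lost its call without control 1, control 3, WDR11OE 1 or WDR11OE 2 (adjusted p between 0.0575 and 0.079). Col16a1 had a log2 fold change of 0.72 (SE 0.24) that missed the threshold (edgeR adjusted p = 0.0572), and it was called higher without control 1 or WDR11OE 4 (adjusted p between 0.00912 and 0.0382) and with the GC trend removed (1.06, adjusted p = 0.0488). Col19a1 lay between 0.337 and 2.42 CPM in all tumors and was not called, but was called higher without control 1 (log2 fold change 1.85, edgeR adjusted p = 0.0197).

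The 3 chains of type IX collagen, which decorate the type II fibrils of cartilage and of the vitreous body of the eye, did not follow Col2a1. Col9a1 was at 270, 225 and 297 CPM in the controls and at 428, 473, 362 and 240 CPM in the WDR11OE tumors. Col9a3 was at 241, 180 and 233 CPM in the controls and at 292, 328, 298 and 212 CPM in the WDR11OE tumors, and Col9a2 at 142, 116 and 175 CPM and at 144, 148, 147 and 92.7 CPM. WDR11OE 4 was the lowest WDR11OE tumor for each chain, and the groups overlapped. Their log2 fold changes were 0.51 (SE 0.23), 0.37 (SE 0.17) and -0.12 (SE 0.20) for Col9a1, Col9a3 and Col9a2, with edgeR adjusted p of 0.132, 0.133 and 0.694. Without WDR11OE 4, Col9a1 and Col9a3 were called higher (0.67 with an adjusted p of 0.0123, and 0.49 with an adjusted p of 0.0261), and Col9a2 turned to 0.26 with the GC trend removed.

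Col8a2, a chain of the hexagonal nets known from the cornea and vessels, was at 121, 79.1 and 75.9 CPM in the controls and at 23.8, 34.1, 34.3 and 26.5 CPM in the WDR11OE tumors. The lowest control was 2-fold or more above the highest WDR11OE tumor, and the log2 fold change was -1.63 (SE 0.20, edgeR adjusted p = 0.00155). Its relative Col8a1 was between 3.24 and 3.92 CPM in the controls and between 4.07 and 7.12 CPM in the WDR11OE tumors, with no overlap in the opposite direction but no call (log2 fold change 0.61, SE 0.24, edgeR adjusted p = 0.0922). Col10a1, the net-forming chain of growth cartilage, lay between 0.0556 and 1.07 CPM in all tumors, with no call.

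Of the collagens with a transmembrane segment, Col23a1 was at 149, 144 and 184 CPM in the controls and at 55.9, 45, 70.2 and 55.4 CPM in the WDR11OE tumors. It was 2.80-fold lower (log2 fold change -1.49, SE 0.16, edgeR adjusted p = 0.00108) and the highest WDR11OE tumor was 2-fold below the lowest control. Col17a1, which anchors skin cells to their basement membrane, had 2, 2 and 2 counts in the controls and 4, 23, 14 and 53 counts in the WDR11OE tumors. The pooled ratio of WDR11OE to control was 7.04, with an exact 95% interval of 3.11 to 19.7 for counting error, and edgeR called it higher (adjusted p = 0.0237). The level stayed at or under 0.581 CPM in every tumor, the gene passed the filter in only 4 of the 7 fits without 1 tumor, and its call was lost in the 3 without a control (adjusted p between 0.0674 and 0.085). Col13a1 and Col25a1 had log2 fold changes of -0.68 and 0.03, with no call, and that of Col25a1 was -0.18 with the GC trend removed. Of the last 2 genes, Col7a1, the anchoring fibril chain, had a log2 fold change of 0.76 (SE 0.30, edgeR adjusted p = 0.0954), and was called higher without control 1 (1.22, adjusted p = 0.0066) and with the GC trend removed (1.11, adjusted p = 0.0454). Col28a1 had -0.93 (SE 0.51, edgeR adjusted p = 0.207).

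Since chains of one molecule assemble in fixed proportions, the ratio of their levels was compared within each tumor. Levels here were taken per length of the transcript with the longest coding sequence, because the merged exons of Col1a2 and Col6a2 hold 12145 and 8326 bases against 5347 and 3949 in that transcript. This choice shifts a ratio by 1 factor in all tumors and leaves the comparison of the groups as it is, but not the order of 2 chains within a tumor. The ratio of Col6a1 to Col6a2 was 0.787, 0.807 and 0.937 in the controls and 1.46, 1.43, 1.19 and 1.59 in the WDR11OE tumors, with no overlap. Which of the pair is the higher depends on the length used, since per merged exons the ratio was 1.55, 1.59 and 1.84 in the controls and 2.88, 2.82, 2.34 and 3.13 in the WDR11OE tumors. The ratio of Col4a1 to Col4a2 was 2.17, 2.29 and 2.35 in the controls and 2.88, 2.85, 2.60 and 2.55 in the WDR11OE tumors. The ratio of Col5a1 to Col5a2 was 1.08, 1.32 and 1.13 in the controls and 0.640, 0.766, 0.773 and 0.530 in the WDR11OE tumors, and that of Col9a1 to Col9a2 was 1.45, 1.48 and 1.29 and 2.27, 2.43, 1.88 and 1.97. In these 4 pairs the groups did not overlap, and the two-sided exact permutation test over all 35 splits gave its smallest possible p of 0.0286, or 0.0357 after Benjamini-Hochberg adjustment over the 5 pairs examined. The fifth pair, Col1a1 to Col1a2, had ratios of 5.18, 5.16 and 3.67 in the controls and 6.08, 6.37, 3.98 and 2.13 in the WDR11OE tumors, and the same exact permutation test gave p = 0.857 (adjusted 0.857).

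The GC content of 2 partner genes can differ, and with the GC trend in the offset the differences in fitted log2 fold change between the chains became smaller for 3 pairs. The value was 0.14 for Col4a1 and Col4a2, beside 0.26 for the log2 ratio as measured, -0.32 beside -0.81 for Col5a1 and Col5a2, and 0.29 beside 0.60 for Col9a1 and Col9a2. For Col6a1 and Col6a2 it was 0.76 beside 0.75. For Col1a1 and Col1a2 the sign turned, with 0.38 beside -0.12.

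**Figure D4:**
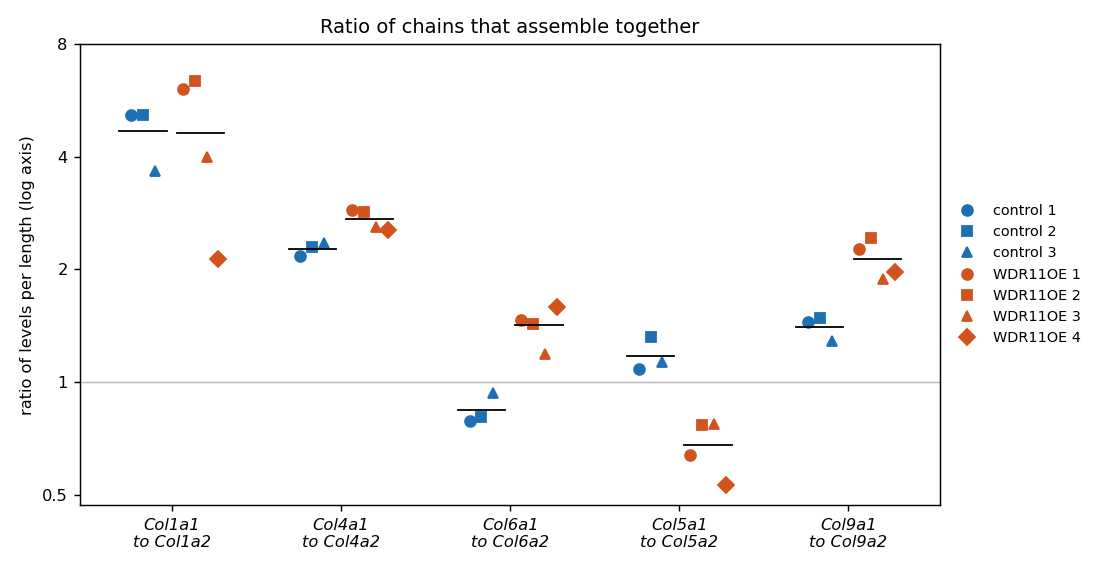
Ratio of the levels of 2 chains of one collagen type in each tumor on a log axis, per length of the transcript with the longest coding sequence, with a line at the mean of each group. The ratio of Col6a1 to Col6a2 lies between 0.787 and 0.937 in the controls and between 1.19 and 1.59 in the WDR11OE tumors, and the groups overlap only for Col1a1 to Col1a2.

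Making, cutting and binding collagen takes other proteins, whose genes were grouped into lists by what they are known to do. Beside the counts that follow stand the 15.8% lower and 18.1% higher among all genes tested, or 9.26% and 4.49% with the GC trend removed. Of 19 genes for modification and folding of the chains, 4 (21.1%) were lower and 2 (10.5%) higher, and 2 and 1 with the GC trend removed. Leprel1, a prolyl 3-hydroxylase, and Tram2, which takes part in moving the chains into the endoplasmic reticulum, had log2 fold changes of -1.46 and -1.30 (edgeR adjusted p = 0.00117 and 0.00151). Sec13, a coat protein of secretory vesicles, and Fkbp14, a foldase, rose by 0.64 and 0.63 (edgeR adjusted p = 0.00426 and 0.0161), and the call of Fkbp14 was lost with the GC trend removed (0.141). Serpinh1, the collagen chaperone and the highest of the list, was at a mean of 917 CPM in the controls and 857 CPM in the WDR11OE tumors, with no call (adjusted p = 0.83).

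Of 12 genes tested for trimming and cross-linking, 3 (25%) were lower and 1 (8.33%) higher, and 1 and 0 with the GC trend removed. Loxl1, a cross-linking amine oxidase, was at 22.4, 21.5 and 23.7 CPM in the controls and at 5.09, 4.95, 7.52 and 5.25 CPM in the WDR11OE tumors, with no overlap (log2 fold change -1.99, SE 0.17, edgeR adjusted p = 0.000917). Bmp1, the protease that removes the C-terminal propeptide of fibrillar collagens, fell by 0.57 (adjusted p = 0.00345), while Loxl3 rose by 0.67 (adjusted p = 0.0424), and both calls were lost with the GC trend removed (edgeR adjusted p = 0.179 and 0.0903). Pcolce, the enhancer of that protease and the highest of the list, was not called (log2 fold change -0.29, edgeR adjusted p = 0.155).

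Collagen receptors and the genes of breakdown held no higher call. Of 10 receptors 2 fell, a share of 20% that is close to the 15.8% of all genes, the tyrosine kinase Ddr2 by 0.82 (edgeR adjusted p = 0.00694) and the uptake receptor Mrc2 by 0.94 (adjusted p = 0.00171), and Itgb1, the highest, was not called (0.21, adjusted p = 0.0989). Of 12 genes of breakdown and its inhibitors 4 (33.3%) fell, and 2 with the GC trend removed, among them the gelatinase Mmp2, also the highest, by 0.96 (edgeR adjusted p = 0.00402) and the membrane protease Mmp14 by 0.74 (adjusted p = 0.00598), which lost its call with the GC trend removed (0.0815).

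Of 16 partners of basement membrane collagens, 9 (56.2%) fell and none rose, with a median log2 fold change of -0.58 beside -0.30 for the basement membrane collagens themselves, and 5 were lower with the GC trend removed. The laminin chains Lamc1 and Lama2 fell by 0.998 and 1.52 (edgeR adjusted p = 0.00121 and 0.00207), and Sparc, the highest of the list, was not called (-0.28, adjusted p = 0.275). Of 16 partners in interstitial matrix 6 (37.5%) fell and none rose, and 5 fell with the GC trend removed. Fbn2, a fibrillin and the highest, fell by 1.16 and fibronectin (Fn1) by 1.10 (edgeR adjusted p = 0.0014 and 0.00198).

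Collagens are made by several of the cell types a tumor chunk can hold, and in whole tissue fewer cells of a type and less RNA per cell cannot be told apart. Of 10 markers of mural cells, which wrap vessels, 4 (40%) were lower and none higher, but only 1 was lower with the GC trend removed, and their summed level was 761 to 799 CPM in the controls and 382 to 551 CPM in the WDR11OE tumors. The pericyte markers Pdgfrb and Anpep fell by 0.60 and 1.49 (edgeR adjusted p = 0.00865 and 0.00917), and Cspg4, the highest, by 0.79 (adjusted p = 0.00949). Cspg4 held most of the sum, with means of 515.7 CPM in the controls and 297.4 CPM in the WDR11OE tumors. The calls of Pdgfrb and Cspg4 were lost with the GC trend removed (edgeR adjusted p = 0.119 and 0.163). Of the 10 markers, 8 had a negative and 2 a positive log2 fold change, Rgs5 at 0.22 and Tagln at 0.14 (edgeR adjusted p = 0.25 and 0.656). Of 10 endothelial markers 4 (40%) fell and none rose, and 3 fell with the GC trend removed, at 150 to 202 CPM in sum against 112 to 126 CPM. Eng and Flt1 fell by 1.54 and 0.74 (edgeR adjusted p = 0.00199 and 0.00151) and Cdh5, the highest, by 1.02 (adjusted p = 0.00238). In this list 7 markers had a negative and 3 a positive log2 fold change. The positive ones were Pecam1, Emcn and Tek at 0.12, 0.19 and 0.02 (edgeR adjusted p = 0.496, 0.607 and 0.959).

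Of 12 markers of fibroblasts and meningeal cells 3 (25%) fell and none rose, and 4 fell with the GC trend removed, with sums of 425 to 453 CPM in the controls and 303 to 350 CPM in the WDR11OE tumors. Tbx18 and Fbln1 fell by 1.55 and 1.05 (edgeR adjusted p = 0.00161 and 0.0063), and Crabp2, the highest per length, was not called (0.57, adjusted p = 0.118). In this list 6 markers had a negative and 6 a positive log2 fold change, with a median of -0.0042. Besides Crabp2, the positive ones were Slc6a13, Aldh1a2, Dcn, Lum and Mgp at 1.98, 1.17, 1.05, 0.46 and 0.34 (edgeR adjusted p = 0.156, 0.336, 0.174, 0.235 and 0.22). Pdgfra and Fbln1 held most of the sum, with means of 184.1 and 129.6 CPM in the controls and 119.4 and 62.4 CPM in the WDR11OE tumors. All 9 skeletal muscle markers tested rose, from sums of 3.52 to 5.84 CPM to 47.0 to 139 CPM, among them Ckm and Acta1 at means of 10.03 and 14.19 CPM in the WDR11OE tumors against 0.0172 and 0.174 CPM. Mb had no count in any control, and Myh1 and Myh4 had none in control 2 and control 3. Such genes passed the filter through the WDR11OE tumors and could only come out higher, so the count of 9 carries no weight. Myh2 did not pass the filter. Tnnt3 and Tnni2 were detected in every control, at 0.95 to 1.29 and 1.78 to 3.0 CPM, and at 5.67 to 15.8 and 6.36 to 11.7 CPM in the WDR11OE tumors. No astrocyte or microglial marker of 6 each was called. Gja1, the highest astrocyte marker, had a log2 fold change of -0.10 and C1qa, the highest microglial one, of -0.18 (edgeR adjusted p = 0.417 and 0.793). Summed astrocyte markers ranged from 392 to 506 CPM in the controls and 260 to 746 CPM in the WDR11OE tumors, and summed microglial markers from 73.9 to 216 CPM and 75.8 to 203 CPM. The summed level of the cortical neuron markers was highest in control 1 and WDR11OE 4, at 345 and 262 CPM, against 14.5 to 86.9 CPM in the other tumors, and Snap25, the highest, was not called. The part of these cells in the collagen values was not tested.

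As a check of the labels, the mouse Wdr11 row was at 58.9, 58.3 and 59.3 CPM in the controls and 66.8, 61.0, 65.7 and 68.9 CPM in the WDR11OE tumors (log2 fold change 0.16, edgeR adjusted p = 0.091). The vector carried the human sequence, and how its reads were assigned was not tested. Myc fell from 812 to 1109 CPM in the controls to 278 to 431 CPM in the WDR11OE tumors (edgeR adjusted p = 0.00227). The study already reported lower Myc in these tumors, so this value is no separate check. The retrovirus of the line carried Myc as well, and whether the row holds its reads was not tested. Of the 9 markers listed for the granule lineage and the tumor, Mki67 and Myc among them, Atoh1 had no count in any tumor. Barhl1 had a single count in 1 tumor, while the other 7 had counts in every tumor. Among these, Pax6 was at 17.2 to 31.2 CPM, Meis1 at 14.5 to 36.6 CPM, Zic1 at 1.76 to 16.8 CPM and Zic2 at 2.57 to 7.33 CPM, and only Myc was called. Total counts were 33417175 to 41397427 in the controls and 32116095 to 87141305 in the WDR11OE tumors, so 3 counts correspond to between 0.0329 and 0.0924 CPM. The libraries of each condition carry their own series of names, and such a series and the condition cannot be told apart. WDR11OE 1 and WDR11OE 2 share a number in their titles, and no source used here says whether they come from 1 animal, so p-values may measure a spread that is partly technical.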

How the data were processed

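The authors sequenced total RNA from 7 tumors, mapped the reads to NCBIM37.67 (mm9) with the StrongArm pipeline and deposited raw counts per gene from HT-seq on a GENCODE annotation. The labels name the TruSeq RNA v2 kit and the methods total stranded sequencing. The submitters' processing notes name CASAVA 1.7, STAR, BWA and HTSeq. The strand setting is not given in the sources used here, so reads shared with overlapping genes may be misassigned.

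From the deposited counts, genes kept by filterByExpr (17389) were scaled by TMM and tested with edgeR 4.0.16 in R 4.3.3 (quasi-likelihood test, two-sided, Benjamini-Hochberg) with condition as the only term. CPM used TMM-scaled library sizes, without a prior count. RPKM divided CPM by the exon length in GENCODE for NCBIM37, which matched 33606 of 34592 symbols and all 43 collagens. There is no Col21a1 or Col26a1 row. Chain ratios were tested by exact permutation over 35 splits. Alternatives were limma 3.58.1 with voom, DESeq2 1.42.0, other scalings and filters, GC or length trends in the offset, WDR11OE 1 and 2 summed, and each tumor left out. No 2 libraries of a group agreed within sampling noise.

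Members and lists were chosen with earlier results of these data known. By rule, values per tumor are given for collagens past an adjusted p of 0.05 and 2-fold, the 2 of highest mean RPKM per class and the chains of types I, IV, V, VI and IX, and from each other list up to 2 lower and 2 higher genes of smallest p and the highest. The values of Col11a1 and Col24a1, the granule lineage and tumor genes other than Myc, and the genes of cartilage and bone fall outside it. So do the fibroblast and meningeal members set beside Col24a1 and the fibroblast, meningeal, mural and endothelial markers with a positive log2 fold change. The same holds for Pdgfra and for the skeletal muscle markers other than Ckm and Acta1. All of these were picked with their values known. The result of 1 gene of the cortical neuron marker list is not reported here.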

Additional observations from a re-analysis of the deposited data

Results flagged for a closer look

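With 4 tumors in the WDR11OE group, the distance of an end value from its nearest neighbour was compared with the range of the group. Distance and range were taken on a log scale, for 43 collagens and 5 chain ratios, and chance marks about 1 in 20. Col1a1 in WDR11OE 4 was marked, at 81.9 CPM against 270 to 283 CPM in the other WDR11OE tumors, a gap of 0.965 of the range. Col9a2 in the same tumor was at 92.7 CPM against 144 to 148 CPM, a gap of 0.93 of the range.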

How the results depend on the processing

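No paired analysis was possible because the labels carry no replicate numbers. Of the 17 collagens called, 6 kept their call in every alternative, 11 lost it in at least 1 and 0 turned, and 8 of the 26 not called were called in at least 1. The 15 lower collagens became 8 with the GC trend in the offset, 7 with an exon length trend, 7 with WDR11OE 1 and 2 summed, 8 with the limits of 2-fold and average level, and 7 to 14 without 1 tumor. Of all genes, 9.26% were lower with the GC trend, beside 18.6% of the collagens. That share was 9.7% with the length trend beside 16.3%, and 12.2% with the tumors summed beside 16.7%. With the limits 3.45% of all genes were lower, and without 1 tumor 11.7% to 16.9%. The 2 higher became 1 with limma-voom, with the 1 CPM filter or with the limits, 5 with DESeq2 or the GC trend, 0 with the tumors summed, and 0 to 4 without 1 tumor. Of all genes, 17.7% were higher with limma-voom, 18.5% with the 1 CPM filter, 2.36% with the limits and 17.8% with DESeq2. The share was 4.49% with the GC trend, 9.51% with the tumors summed and 9.12% to 17.6% without 1 tumor. The median log2 fold change of all collagens was -0.59 with the 1 CPM filter and -0.53 to -0.30 without 1 tumor. That of the fibrillar class was -0.69 to -0.0076 without 1 tumor. That of the other class was -0.67 with the 1 CPM filter, -0.50 with the tumors summed and -0.63 to -0.079 without 1 tumor. The 1 CPM filter removed 7 collagens, and the cause of the other shifts was not tested. With the GC trend, the log2 differences of the chain ratios were 0.38 for Col1a1 to Col1a2, 0.14 for Col4a1 to Col4a2, -0.32 for Col5a1 to Col5a2 and 0.29 for Col9a1 to Col9a2. At these depths 3 counts correspond to between 0.0329 and 0.0924 CPM, close to the levels of Col17a1 and Col4a3.

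Signs turned only in collagens that were not called. With limma-voom, Col10a1 was at 0.25, Col25a1 at -0.014, Col6a5 at -0.36 and Col6a6 at 0.19. With DESeq2, Col25a1 was at -0.018 and Col4a5 at -0.029, and without a filter at -0.023 and -0.046. With the GC trend, Col18a1 was at 0.04, Col25a1 at -0.18 and Col9a2 at 0.26, and with the length trend Col5a2 was at 0.044. With WDR11OE 1 and 2 summed, Col27a1 was at -0.018 and Col6a6 at 0.032. Without 1 tumor, log2 fold changes ranged from -0.93 to 0.26 for Col10a1, -1.503 to 0.088 for Col1a1, -0.16 to 0.27 for Col25a1, -0.076 to 0.15 for Col27a1, -0.44 to 0.46 for Col4a5, -0.63 to 0.11 for Col4a6, -0.36 to 0.13 for Col5a2, -0.58 to 0.27 for Col6a6 and -0.26 to 0.043 for Col9a2.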

Other observations

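The collagens of cartilage were abundant in these brain tumors, and other genes of cartilage and bone were looked up for that reason, after the collagen values had been seen and without a test of the list. Sox9, a transcription factor that drives Col2a1 in cartilage, was at 183, 158 and 168 CPM in the controls and at 49.1, 56.8, 78.1 and 51.6 CPM in the WDR11OE tumors, with a log2 fold change of -1.53 (edgeR adjusted p = 0.00112). Its partners Sox5 and Sox6 had log2 fold changes of 0.01 and -0.39 (edgeR adjusted p = 0.97 and 0.0501). Matn4, a matrix protein, was between 66.2 and 116 CPM in the controls and between 34.7 and 63.1 CPM in the WDR11OE tumors, and Acan, the large proteoglycan of cartilage, between 11 and 22.3 CPM and between 2.82 and 14 CPM, neither of them called. Matn1 and Matn3, which are matrix proteins of cartilage, stayed at or under 0.215 CPM in every tumor. Comp, Matn2 and Hapln1 had positive log2 fold changes of 2.16, 0.80 and 0.19 (edgeR adjusted p = 0.137, 0.379 and 0.799). Chad had a negative one of -0.80 (edgeR adjusted p = 0.238). Runx2 was called lower, at -0.61 (edgeR adjusted p = 0.0362). Its call was lost without any 1 tumor other than control 3 (adjusted p between 0.0521 and 0.0817).

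Control 1, the tumor with the highest Col1a1 and Col1a2, also had the highest CPM of several genes of bone. Sp7, a transcription factor of bone-forming cells, was at 77.4 CPM there and between 25.3 and 50.5 CPM in the other tumors, and Alpl, an alkaline phosphatase, at 65.6 CPM and between 18.4 and 46.6 CPM. Ctsk, the collagen-degrading protease of osteoclasts, was at 14 CPM against 2.32 to 5.08 CPM, and Mmp13 at 10.5 CPM against 1.22 to 6.18 CPM. Ibsp and Spp1, other bone matrix genes, did not follow this, at 11.3 and 32.8 CPM in control 1 and up to 31.0 and 145 CPM in WDR11OE tumors. Bglap, Bglap2, Acp5 and Dmp1, looked up with them, were highest in control 1 at low levels, at 0.695, 0.556, 4.39 and 0.973 CPM.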
